A study of Drosophila melanogaster with 9 samples.

Results

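Transcription factor genes that respond to sugar, lipid or feeding state, 9 in all, were followed in fruit flies on 3 diets. They were Hr38, Hnf4, ERR, hry, Mondo, SREBP, sug, REPTOR and crc. The genes were found by their symbols in the platform annotation, which named 10 of the 18769 non-control probe sets for them, 1 for each gene and a further one for Hr38. All 9 genes were among the 8822 genes tested, where a probe set that named no gene or several was counted as a gene of its own. The 9 genes were chosen by symbol and known role, with the differences of all 3 comparisons on these arrays already in view, so the calls below describe these arrays and are not independent evidence about the list.

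The flies were Canton-S females, a wild-type laboratory strain, 10 days old, and RNA came from head and thorax of at least 75 pooled females per array. Some flies was kept on normal food, some on a restricted diet and some on normal food with resveratrol, a plant polyphenol. Each had 3 biological replicates on Affymetrix arrays, and all groups shared strain, sex and age. Neither food composition nor resveratrol dose is stated in the labels. Values are log2 units of signal, so that a difference of 1 is a doubling. They describe each probe set across arrays and are not compared between genes.

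Several of these proteins are nutrient sensors or sit directly downstream of one. Mondo, with its partner bigmax, is the fly counterpart of the mammalian sugar-sensing factor ChREBP, and sug (sugarbabe) is a zinc finger protein induced by sugar through it. SREBP drives fatty acid synthesis after it is cut free from a membrane, REPTOR enters the nucleus when the TORC1 kinase is inactive, and crc, the fly ATF4, is translated when the initiation factor eIF2alpha is phosphorylated. For these proteins much of the control lies after the transcript, which is the quantity measured here.

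The diets separated 2 of the 9 transcripts most. hry, which encodes the repressor Hairy, was highest on the normal diet, intermediate on the restricted diet and lowest with resveratrol. Hr38, a nuclear receptor, was highest with resveratrol and lowest on the restricted diet. SREBP was lower on the restricted diet than on the normal diet. The remaining 6 genes passed the test in no comparison in the fit used throughout, in which a gene passed at a limma adjusted p under 0.05 over all 8822 genes.

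**Figure D1:**
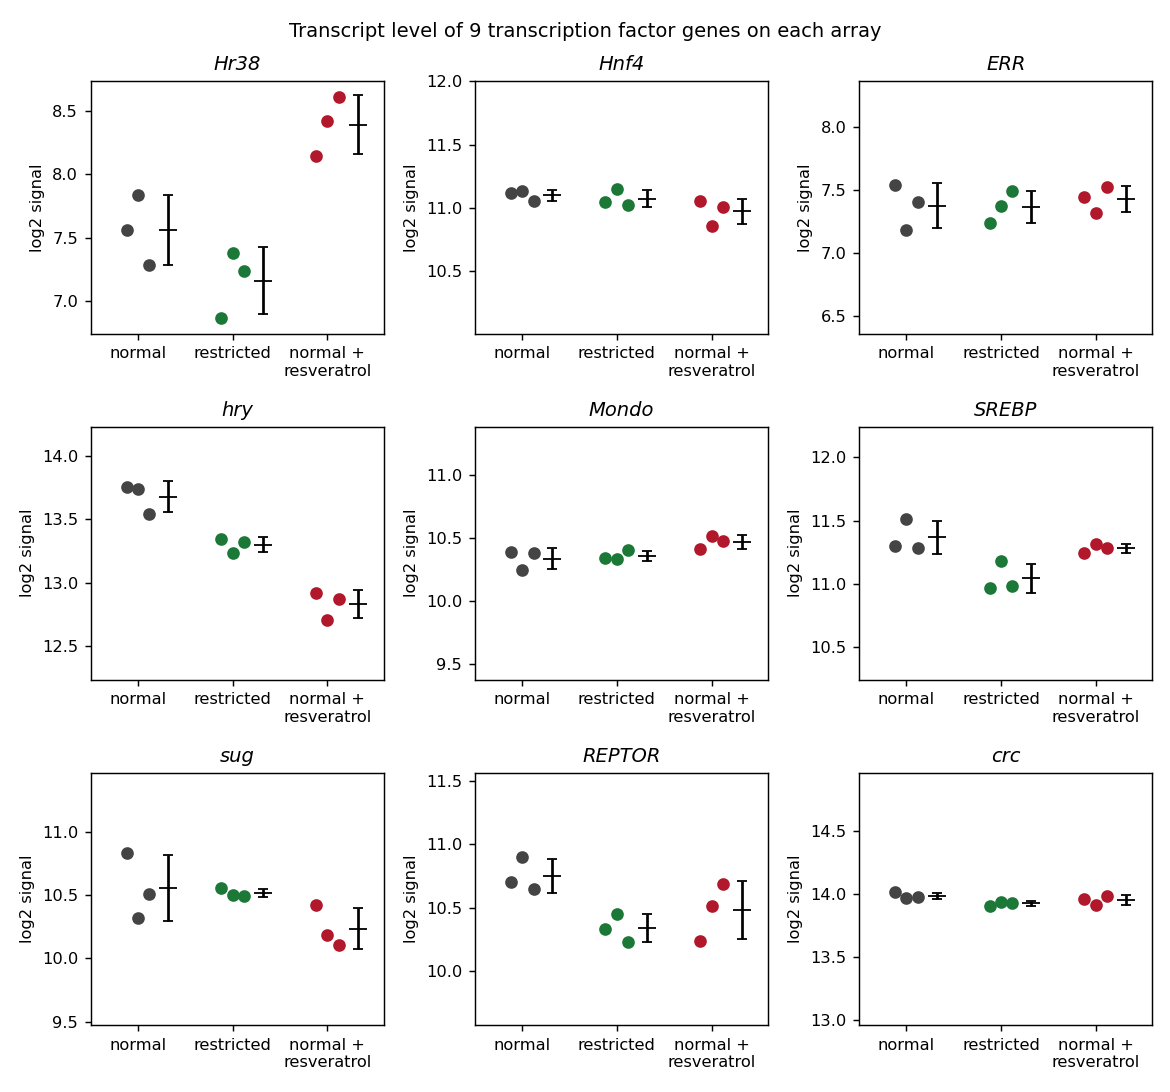
Log2 signal (vertical axes, each spanning 2 units) of the 9 genes on each array, by diet; points are arrays and the black bars give mean ± SD (n = 3). The hry points of the 3 diets do not overlap, the Hr38 points with resveratrol lie above all others, and the ERR points overlap throughout.

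Hairy is a basic helix-loop-helix protein that binds DNA and silences genes through the corepressors gro and CtBP. On the normal diet hry stood at 13.76, 13.74 and 13.54 in replicates 1 to 3. On the restricted diet it stood at 13.34, 13.23 and 13.32, and with resveratrol at 12.92, 12.71 and 12.87. Every restricted-diet value lay below every normal-diet value, and every resveratrol value lay below every restricted-diet value. The means were 13.68 ± 0.12, 13.30 ± 0.06 and 12.83 ± 0.11 (SD, n = 3).

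All 3 differences for hry passed in limma. With resveratrol hry fell by 0.85 (SE 0.08, 1.80-fold, adjusted p = 0.0182), and its p ranked 4 among the 8822 genes. It was the only one of the 9 genes among the 20 genes called in that comparison, where 0.227% of all genes were called. On the restricted diet it fell by 0.38 (SE 0.08, 1.30-fold, adjusted p = 0.0229), and its p ranked 723. The restricted diet and resveratrol themselves differed, with hry 0.47 higher on the restricted diet (SE 0.08, adjusted p = 0.0415). The 3 differences are not independent, since each pair shares the arrays of a diet and each difference follows from the others.

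The size of the hry differences was steadier than their calls. With 1 array left out the resveratrol difference ranged from -0.92 to -0.79, the restricted-diet difference from -0.45 to -0.34 and the difference between the treatments from 0.41 to 0.51. The resveratrol call ended without normal-diet replicate 1 (adjusted p = 0.0832) or 2 (0.0577), restricted-diet replicate 3 (0.0504), or resveratrol replicate 1 (0.0622), 2 (0.0617) or 3 (0.0561). The restricted-diet call ended without normal-diet replicate 1 (adjusted p = 0.0763) or 2 (0.0733), or restricted-diet replicate 1 (0.0599), 2 (0.0519) or 3 (0.0559). The call between the treatments held in that series only without normal-diet replicate 2 (adjusted p = 0.0456) or 3 (0.0411), and its adjusted p otherwise reached 0.140 at most. It also ended under quantile normalization (adjusted p = 0.0586) and a common median per array (0.0686). The same call ended without a filter on dim probe sets and with only the 2 diets in the fit. Without a filter on dim probe sets the restricted-diet call ended too (adjusted p = 0.0591), and with only the 2 diets in the fit the resveratrol call did (adjusted p = 0.107). Adding replicate number to the fit ended the resveratrol call and the call between the treatments. Adding the mean of germline markers ended all 3 calls. That mean did not overlap between the normal diet (6.98 to 7.92) and the restricted diet (8.37 to 9.47). The fit with it therefore cannot tell germline content apart from the restricted diet.

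Hr38 is the fly member of the NR4A family of nuclear receptors, induced by neuronal activity and involved in carbohydrate metabolism. On the normal diet it stood at 7.56, 7.84 and 7.28, on the restricted diet at 6.87, 7.38 and 7.24, and with resveratrol at 8.15, 8.42 and 8.61. The resveratrol values lay above all 6 others, while the normal and restricted values overlapped. The means were 7.56 ± 0.28, 7.16 ± 0.26 and 8.39 ± 0.23 (SD, n = 3).

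The difference that passed for Hr38 was the one between the treatments. It was 1.23 lower on the restricted diet than with resveratrol (-1.23, SE 0.19, 2.35-fold, limma adjusted p = 0.0390). Against the normal diet the resveratrol difference was 0.83 (SE 0.19, 95% interval 0.39 to 1.27), which ranked 121 by p but did not pass (adjusted p = 0.179). The restricted-diet difference was -0.40 (95% interval -0.84 to 0.04, adjusted p = 0.166). The call between the treatments ended without normal-diet replicate 1 (adjusted p = 0.0694), restricted-diet replicate 1 (0.0970), 2 (0.0524) or 3 (0.0998), or resveratrol replicate 2 (0.139) or 3 (0.133), with differences from -1.35 to -1.09. It also ended under quantile normalization (adjusted p = 0.0561), a common median per array (0.0686), no filter (0.0993) and with only the 2 diets in the fit (0.0620). Adding replicate number to the fit ended the call as well. The second Hr38 probe set lay between 2.16 and 2.50 on all 9 arrays, below the log2 4 taken here as the lower limit of measurement. It carries no information on a change.

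SREBP is the helix-loop-helix activator of fatty acid synthesis genes. It stood at 11.30, 11.52 and 11.28 on the normal diet, at 10.97, 11.18 and 10.98 on the restricted diet, and at 11.24, 11.32 and 11.28 with resveratrol. The restricted-diet values lay below all 6 others, and the normal and resveratrol values overlapped. SREBP fell by 0.32 on the restricted diet (SE 0.08, 1.25-fold, adjusted p = 0.0365), and its p ranked 1218. The resveratrol difference was -0.09 (95% interval -0.28 to 0.11, adjusted p = 0.802), and restricted minus resveratrol was -0.24 (adjusted p = 0.139). The restricted-diet call ended without normal-diet replicate 1 (adjusted p = 0.0754) or 2 (0.0962), restricted-diet replicate 1 (0.110) or 3 (0.101), or resveratrol replicate 2 (0.0608), with differences from -0.39 to -0.25 with 1 array left out. It also ended under quantile normalization (adjusted p = 0.0513), without a filter (0.0888) and with only the 2 diets in the fit (0.0726).

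REPTOR is the basic leucine zipper protein that carries out much of the transcriptional response to TORC1 inactivity. It stood at 10.70, 10.90 and 10.65 on the normal diet, at 10.33, 10.45 and 10.23 on the restricted diet, and at 10.24, 10.51 and 10.69 with resveratrol. The normal and restricted values did not overlap, and the resveratrol replicates spanned both. The restricted-diet difference was -0.41 (SE 0.13, 95% interval -0.70 to -0.12) and missed the threshold (limma adjusted p = 0.0579). In 4 of 19 alternative fits it passed. The resveratrol difference was -0.27 (95% interval -0.56 to 0.02, adjusted p = 0.550).

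sug stood at 10.84, 10.32 and 10.51 on the normal diet, at 10.55, 10.50 and 10.50 on the restricted diet, and at 10.42, 10.19 and 10.10 with resveratrol. The resveratrol values lay below the 3 restricted-diet values and overlapped those of the normal diet, which were the most scattered of the groups. The resveratrol difference was -0.32 (95% interval -0.63 to -0.01, adjusted p = 0.499) and restricted minus resveratrol was 0.28 (95% interval -0.03 to 0.59, adjusted p = 0.233). The restricted-diet difference was -0.04 (95% interval -0.35 to 0.27, adjusted p = 0.847). The wide intervals leave changes of this size unresolved with 3 arrays a diet.

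Mondo, the sugar sensor upstream of sug, stood at 10.39, 10.24 and 10.38 on the normal diet, at 10.34, 10.33 and 10.40 on the restricted diet, and at 10.41, 10.51 and 10.48 with resveratrol. Its resveratrol values lay narrowly above the 6 others. The resveratrol difference was 0.13 (95% interval -0.01 to 0.27, adjusted p = 0.541), and the restricted-diet difference was 0.02 (95% interval -0.12 to 0.16).

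Hnf4, ERR and crc had the narrowest differences. Hnf4 is a nuclear receptor that turns on fat oxidation in fasting flies and supports glucose homeostasis in adults. Its values ran from 11.05 to 11.13 on the normal diet, from 11.02 to 11.15 on the restricted diet and from 10.86 to 11.05 with resveratrol. The Hnf4 intervals were -0.18 to 0.13 for the restricted diet and -0.28 to 0.03 for resveratrol. ERR, a nuclear receptor that switches on glycolytic genes in the fly embryo, ran from 7.19 to 7.54, from 7.24 to 7.49 and from 7.32 to 7.52 in the same order. The ERR intervals were -0.26 to 0.24 and -0.20 to 0.30. crc ran from 13.97 to 14.01, from 13.91 to 13.94 and from 13.91 to 13.99, with intervals of -0.17 to 0.04 and -0.14 to 0.07. The restricted-diet crc values lay just below those of the normal diet (-0.06, adjusted p = 0.346).

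**Figure D2:**
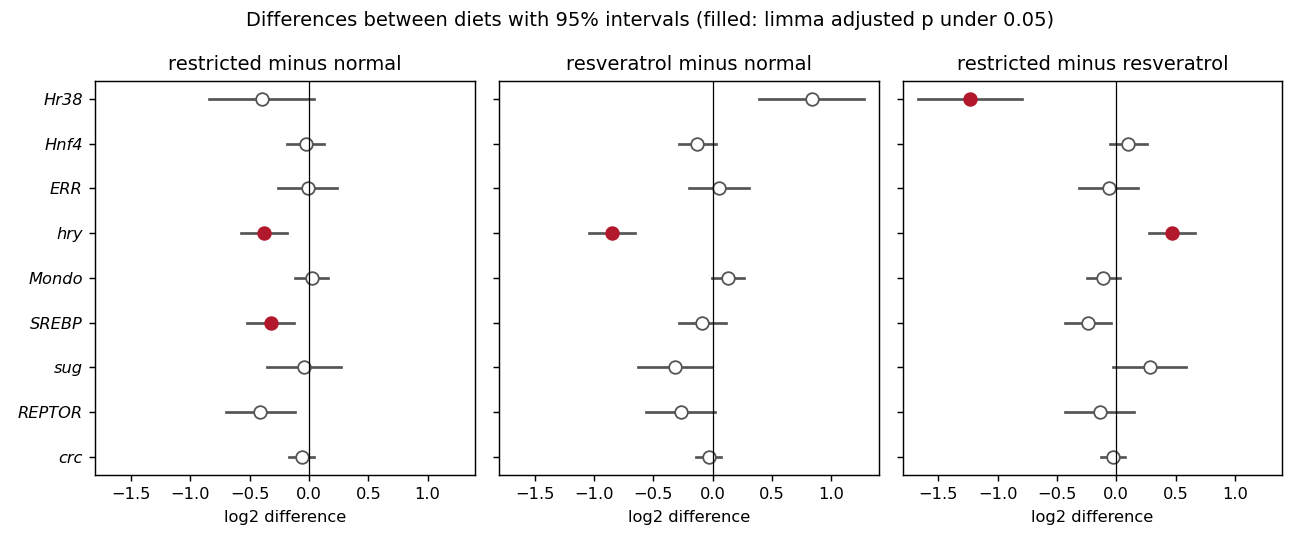
Log2 differences (horizontal axes) of the 9 genes for the 3 comparisons, with 95% intervals from limma; filled points passed at an adjusted p under 0.05. Filled points are hry in all 3 panels, SREBP in the first and Hr38 in the last.

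Read across the list, 2 of 9 genes passed on the restricted diet, both lower, where 18.2% of all genes passed (5.27% higher and 12.9% lower). With resveratrol 1 of 9 passed, lower, where 0.0453% of all genes were called higher and 0.181% lower. Between the treatments 2 of 9 passed, 1 in each direction, where 2.54% of all genes passed (0.453% higher on the restricted diet and 2.09% lower). An unadjusted p under 0.05 was held by 3 of 9 genes in each comparison, beside 37.7%, 9.74% and 25.2% of all genes. The values of the diets did not overlap for 4 of 9 genes on the restricted diet (44.8% of all genes), for 3 with resveratrol (15.4%) and for 5 between the treatments (31.0%). The median difference of the 9 genes on the restricted diet was -0.06, beside -0.05 over all genes, and with resveratrol it was -0.09 beside -0.01. Without regard to sign the median was 0.06 on the restricted diet, beside 0.18 over all genes. It was 0.13 beside 0.09 with resveratrol and 0.14 beside 0.15 between the treatments. Since the list was composed with results known, nothing is read from these shares and medians.

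The genes differed widely in how much they varied. The SD between arrays of the same diet ranged from 0.03 for crc, smaller than in all but 1.08% of genes, to 0.26 for Hr38, which exceeded 85.5% of genes. The median over all genes was 0.12. The gap between the highest and lowest diet mean was 1.23 for Hr38 and 0.85 for hry, more than in 96.4% and 93.7% of genes. hry combined that gap with an SD of 0.10, while the ERR gap of 0.06 was smaller than its own SD of 0.14.

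**Figure D3:**
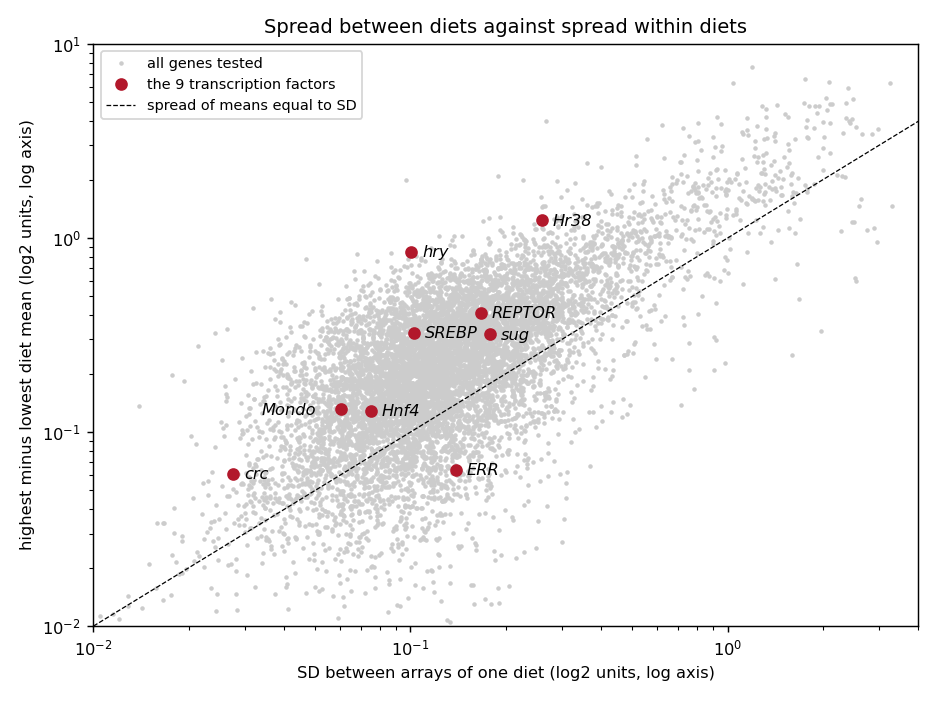
Gap between the highest and lowest diet mean against the SD between arrays of the same diet, both in log2 units on log axes, for all genes tested (grey) and the 9 factors (red); 36 genes below 0.01 on an axis are not drawn. hry and Hr38 lie farthest above the dashed line of equality among the 9, and ERR lies below it.

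Markers of tissues moved with the restricted diet on the same arrays. With resveratrol only the photoreceptor and fat body means lay outside their normal-diet ranges. There 0 markers of any list passed in limma, while some had an unadjusted p under 0.05. The mean of 6 measured neuron markers of 8 listed ran from 9.07 to 9.30 on the normal diet, from 8.57 to 8.67 on the restricted diet and from 9.12 to 9.26 with resveratrol. The mean of 4 photoreceptor markers of 7 ran from 11.09 to 11.22, from 10.62 to 10.64 and from 10.92 to 11.07, and that of 5 muscle markers of 7 from 12.52 to 12.75, from 12.16 to 12.36 and from 12.44 to 12.58. Neural, eye and muscle transcripts, which fit the labelled tissue, were thus lower on the restricted diet. With resveratrol the neuron range lay inside that of the normal diet, the muscle ranges overlapped, and the photoreceptor range lay below that of the normal diet. The mean of 8 midgut markers of 8 ran from 10.47 to 11.72, from 12.14 to 12.47 and from 11.65 to 11.88. Among them lambdaTry, with an SD of 3.64 on the normal diet, had the largest differences. It differed by 4.91 on the restricted diet and by 3.67 with resveratrol (limma adjusted p = 0.0612 and 0.499). The other midgut markers differed by 0.14 to 0.95 and by -0.01 to 0.25, and 6 of the 8 passed on the restricted diet. The mean of 5 fat body markers of 6 ran from 12.80 to 13.00, from 14.07 to 14.20 and from 13.70 to 14.17. The fat body mean was thus above that of the normal diet with both treatments. Its rise on the restricted diet came from Lsp2 (3.89), Obp99b (1.39) and fit (0.78), which encode secreted products, while apolpp (-0.01, adjusted p = 0.901) and FASN1 (0.06, adjusted p = 0.357) did not pass. With resveratrol the same markers differed by 2.69, 1.17, 0.65, 0.05 and 0.11, and 0 passed in limma, while 4 had an unadjusted p under 0.05.

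The mean of 4 glial markers of 5 was 11.74 to 11.89, 11.43 to 11.60 and 11.55 to 11.81 in the same order, and that of 3 blood cell markers of 3 was 7.94 to 8.28, 7.68 to 7.93 and 7.50 to 8.08. The mean of 6 germline markers of 7 ran from 6.98 to 7.92 on the normal diet, from 8.37 to 9.47 on the restricted diet and from 6.67 to 9.33 with resveratrol, so that the resveratrol replicates spanned the widest range. vas, a defining germline gene, and the fat body gene Fbp1 did not pass the filter. The part of these shifts in the restricted-diet differences of hry, SREBP, REPTOR and Hr38, and in the resveratrol differences of hry and Hr38, was not tested, and fewer cells of a type cannot be told apart from less RNA per cell. The germline ranges of the normal and restricted diets did not overlap, so a fit with that mean cannot tell it apart from the restricted diet. With the germline mean as a covariate the restricted-diet difference of Hr38 was -0.06 and that of REPTOR -0.19. That of SREBP was -0.27 (adjusted p = 0.260) and that of hry -0.35 (adjusted p = 0.175), and neither passed. With resveratrol the hry difference was -0.84 with that covariate (adjusted p = 0.0572) and the Hr38 difference was 1.03. Between the treatments neither Hr38 (adjusted p = 0.0516) nor hry (0.0659) passed with it. Differences between 3' and 5' control probe sets, used as a sign of RNA integrity, also moved with the restricted diet for 18S rRNA. They ran from 0.66 to 0.91 on the normal diet, from 0.07 to 0.50 on the restricted diet and from 0.67 to 0.94 with resveratrol, so that the 3 restricted-diet arrays lay below the 6 others. Actin (1.13 to 1.55, 1.06 to 1.39 and 1.36 to 1.45) and eIF-4a (2.67 to 2.88, 2.57 to 2.89 and 2.71 to 2.73) overlapped between the diets. GAPDH overlapped between normal and restricted (0.62 to 0.69 and 0.57 to 0.78), and its values with resveratrol (0.71 to 0.76) lay above those of the normal diet. On restricted-diet replicate 3 the 3' control probe sets DapX, LysX, PheX and ThrX stood at 8.19, 5.25, 6.09 and 5.87. Their lowest values on any other array were 9.30, 6.68, 6.81 and 6.62, while BioB, BioC, BioDn and CreX were not lowest there. All calls of the factors ended without that array, and many also without others. The part of these shifts in the differences of the factors was not tested.

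The genes whose pattern over the 9 arrays was most like each factor were sought among 7750 others by Pearson correlation, given as a description, since all points share the same arrays and diets. A gene picked this way repeats the pattern of the factor over the arrays, though not the size of its differences. The diet differences of such a gene are no added evidence. hry lay nearest to CG3036 (r = 0.97) and to cwo (r = 0.97), a clock gene that encodes a repressor of the same bHLH-Orange class as Hairy. cwo averaged 12.10 ± 0.14, 11.72 ± 0.11 and 11.37 ± 0.03 on the normal diet, the restricted diet and resveratrol (SD, n = 3). The cwo differences from the normal diet were -0.38 and -0.73, and that of CG3036 with resveratrol was -0.50. Hr38 lay nearest to CG32137 (r = 0.97) and drk (r = 0.96), an adaptor of receptor tyrosine kinases. Restricted minus resveratrol was -0.32 for CG32137 and -0.47 for drk, beside -1.23 for Hr38.

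SREBP lay nearest to eIF4A (r = 0.98), a translation initiation helicase, and to kay (r = 0.98), the fly Fos. The kay difference was -0.35 and that of eIF4A -0.09 on the restricted diet. REPTOR lay nearest to Irbp18 (r = 0.97), another basic leucine zipper gene, and to net (r = 0.97). The Irbp18 difference on the restricted diet was -0.36, beside -0.41 for REPTOR. sug lay nearest to GM130 (r = 0.92) and to cbt (r = 0.90), itself a sugar-responsive transcription factor. The resveratrol difference was -0.03 for GM130 and -0.32 for cbt, beside -0.32 for sug. Nearest to Hnf4 were GstZ1 (r = 0.93) and DCTN3-p24 (r = 0.91), to ERR CG11029 (r = 0.90) and CG3907 (r = 0.85), to Mondo CG31704 (r = 0.89) and CG12811 (r = 0.88), and to crc CG14655 (r = 0.95) and CG4945 (r = 0.94). With Spearman's rho in place of Pearson's r, 3 of the 18 named pairs remained.

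**Figure D4:**
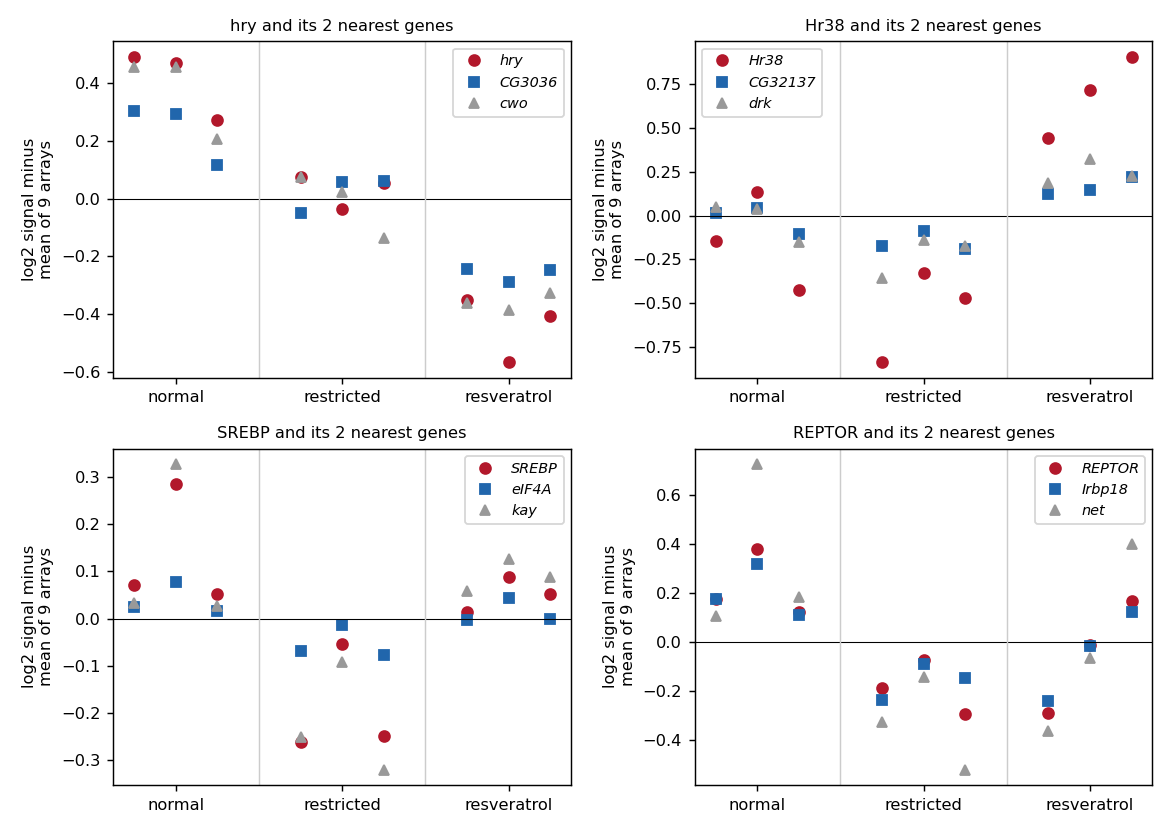
Log2 signal on each array minus the gene's mean over the 9 arrays (vertical axes), in replicate order within each diet, for hry, Hr38, SREBP and REPTOR with their 2 nearest genes. The hry and cwo points step down from normal to restricted to resveratrol, and the Hr38 points are high with resveratrol only.

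Genes around the factors were described from lists of partners, reported targets, signalling genes and other transcription factors. These lists too were composed with earlier results of these data known, so nothing is read from the shares of them that passed. Of 82 listed genes, 65 were tested. On the restricted diet 20 of them passed, 5 higher and 15 lower, or 30.8% beside 18.2% of all genes, with a median difference of -0.11 beside -0.05. With normal-diet replicate 1 left out the count was 6, with replicate 2 of that diet 8 and with restricted-diet replicate 1 11, and 5 of the 20 passed in every fit with 1 array left out. With 1 array left out usp passed in 1 of 9 fits, Hr39 and kay in 2 and tobi in 3, and the others in 5 to 9. With resveratrol 0 of the 65 passed in limma, while 14 had an unadjusted p under 0.05 (9.74% of all genes did). Between the treatments 4 passed, Taldo higher on the restricted diet and chico, foxo and Atf3 lower. These calls were fragile: with 1 array left out foxo passed in 1 of 9 fits, Taldo and Atf3 in 2 and chico in 3, and under quantile normalization or a common median per array 0 of the 65 passed.

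Of 8 tested partners and cofactors, 3 fell on the restricted diet and 5 did not pass (median -0.16). SCAP, the escort protein that brings SREBP to the proteases that cut it, fell by 0.37 (SE 0.07, adjusted p = 0.0165), alongside SREBP itself. CtBP, a corepressor of Hairy, fell by 0.31 (adjusted p = 0.0212), and usp, the dimer partner of Hr38, fell by 0.25 (adjusted p = 0.0491), a call held in 1 of 9 fits with 1 array left out. bigmax and REPTOR-BP, the dimer partners of Mondo and REPTOR, had differences of -0.15 and -0.13 and did not pass, and neither did gro (-0.11), S1P (-0.16) or S2P (0.06).

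Of 9 tested genes reported downstream of Mondo and sug, 2 rose on the restricted diet and 7 did not pass (median 0.17). Men, malic enzyme, rose by 0.39 (adjusted p = 0.0109) and tobi, an alpha-glucosidase, by 1.06 (adjusted p = 0.0425). Of the 6 SREBP-linked lipid synthesis genes, 3 of which the sugar list also holds, 0 passed in limma, while 1 had an unadjusted p under 0.05 (median 0.05). AcCoAS, which makes acetyl-CoA, had a difference of 0.17 (adjusted p = 0.127) and Desat1, a fatty acid desaturase, of -0.22 (adjusted p = 0.326). Thus SREBP and SCAP were lower on the restricted diet, and none of the 6 listed target genes passed there.

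Of 10 listed Hnf4-linked genes, 8 were tested, and 6 did not pass on the restricted diet (median 0.15). Acox57D-p, a peroxisomal acyl-CoA oxidase, rose by 0.61 (adjusted p = 0.0202), and the lipase Lip4 fell by 0.44 (adjusted p = 0.0196). Of 14 listed ERR-linked genes, Gapdh2, PyK, Ldh, Zw and Pgd had no probe set naming them alone. Of the 9 tested, 7 did not pass (median -0.03). Taldo, transaldolase of the pentose phosphate pathway, rose by 0.63 (adjusted p = 0.00598) and was also 0.39 higher than with resveratrol (adjusted p = 0.0415). Pfk, phosphofructokinase, fell by 0.28 (adjusted p = 0.0195).

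Of 12 listed TOR and insulin genes, 8 were tested. On the restricted diet 3 of these fell and 5 did not pass (median -0.20). The insulin receptor InR fell by 0.90 (adjusted p = 0.0159), its substrate chico by 0.43 (adjusted p = 0.00959) and the TORC1 inhibitor scyl by 0.31 (adjusted p = 0.0146). chico was also 0.40 lower than with resveratrol (-0.40, adjusted p = 0.0390). Of 7 tested genes around crc, Nmdmc, a mitochondrial folate enzyme, fell by 1.60 (adjusted p = 0.0121) and stood at a resveratrol difference of -1.53 (adjusted p = 0.0751). The phosphatase subunit PPP1R15, which reverses eIF2alpha phosphorylation, had a difference of -0.12 on the restricted diet (adjusted p = 0.206), and the median of the list was -0.08.

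Of 12 listed other transcription factors, Eip75B and Myc had no probe set naming them alone. Of the 10 tested, 5 fell on the restricted diet, 1 rose and 4 did not pass (median -0.33). Over all genes 12.9% were called lower there and 5.27% higher. The fallers were foxo (-0.34), the forkhead factor of insulin signalling, sima (-0.45), the hypoxia factor, Atf3 (-0.30), Mnt (-0.33), which opposes Myc, and the nuclear receptor Hr39 (-0.33). Hr96, a nuclear receptor of lipid and xenobiotic metabolism, rose by 0.54 (adjusted p = 0.0126). foxo and Atf3 were also lower than with resveratrol (-0.36 and -0.39, adjusted p = 0.0474 and 0.0390), calls held in 1 and 2 of 9 fits with 1 array left out. Among 4 activity-dependent factors set beside Hr38, kay fell on the restricted diet (-0.35, adjusted p = 0.0430) and sr had a difference of -0.66 (adjusted p = 0.0553). Against the normal diet their resveratrol differences ran from -0.04 to 0.07, beside 0.83 for Hr38. Restricted minus resveratrol was -0.73 for sr, -0.31 for kay, -0.26 for Jra and 0.03 for CrebB, beside -1.23 for Hr38. Of these 4 factors 0 passed there in limma, while 3 had an unadjusted p under 0.05 (25.2% of all genes did).

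**Figure D5:**
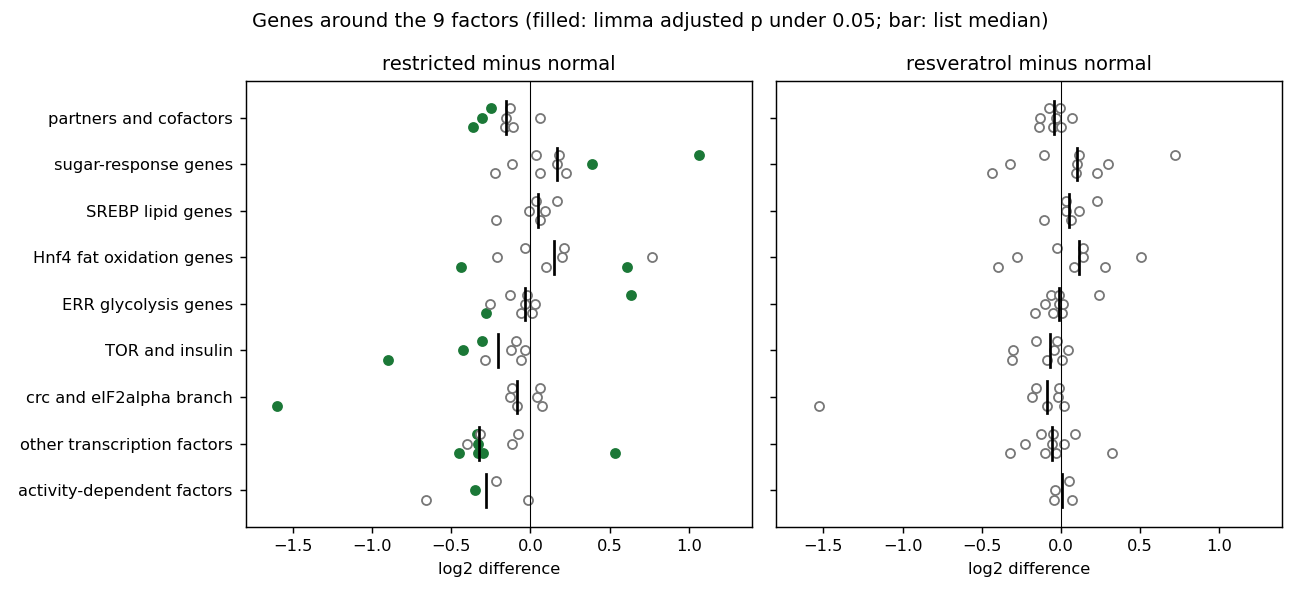
Log2 differences (horizontal axes) of the tested genes of each list for restricted minus normal and resveratrol minus normal; filled points passed in limma and black bars are list medians. 20 distinct genes are filled on the left and 0 on the right.

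The 3 probe sets for Mondo, SREBP and REPTOR are of the kind marked s_at, which in the maker's naming can match transcripts of more than 1 gene. Their values may therefore hold signal from other transcripts, although the annotation named a single gene for each.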

How the data were processed

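Head and thorax RNA (5 µg per labelling, per the labels' protocols) from 9 samples was measured on Affymetrix arrays. The authors deposited log2 probe set values, made with GCRMA per the submitters' processing notes. Neither its version nor the set of arrays it was run on is stated. GCRMA background correction can change the differences of dim probe sets. Values ran from 2.12 to 16.39, and 9295 to 9405 probe sets reached log2 4 on an array. With 3 arrays a diet, their number limits the precision.

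Of 18769 non-control probe sets, 13646 named 1 gene, and 13543 of these were found by identifier in the gene table of assembly Release 6. A probe set was kept where 3 of 9 arrays reached log2 4 (9401), and the brightest stood for a gene. A kept probe set that named no gene or several stood for itself, and the 8822 counted as genes include these. limma 3.58.1 in R 4.3.3 fitted all 9 arrays with a mean per diet (6 residual and 1.81 prior degrees of freedom), with two-sided Benjamini-Hochberg adjustment per comparison. The code was tested on simulated data. Replicates are labelled biological.

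The members and lists were chosen with earlier results of these data known. Named list genes were those passing against the normal diet and the 2 with the smallest p on the restricted diet per list; partners that did not pass were named after their values were seen. The 2 genes of highest Pearson r were named per factor. Alternatives covered normalization, filter, probe set choice, variance model, arrays fitted, replicate number, a germline covariate, the threshold and leaving out each array.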

Additional observations from a re-analysis of the deposited data

How the results depend on the processing

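Each of the 27 differences of the 9 factors was refitted in 19 ways. No called difference changed sign, and the 11 sign changes, in 8 differences, were of values that passed on neither side; of the 513 refits 459 kept direction or non-call, 50 lost a call and 4 gained one. Among 3705 refits of listed genes 151 lost a call, 21 gained one and 115 changed sign without a call. With 1 array left out, factors called ranged from 0 to 3 on the restricted diet, 0 to 1 with resveratrol and 0 to 2 between the treatments; listed genes called from 6 to 19, 0 to 0 and 0 to 4; and all genes called from 332 to 1671, 2 to 9 and 0 to 290. On the restricted diet the count over all genes was 332 without normal-diet replicate 1, 502 without replicate 2 of that diet, 517 and 725 without restricted-diet replicates 1 and 3, and 1039 without resveratrol replicate 2.

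On the restricted diet, quantile normalization left 1 factor called. Without a filter the counts were 0 factors, 11 listed genes and 598 genes, and with the germline covariate 0, 0 and 6. That covariate cannot be told apart from the restricted diet, since its normal and restricted ranges did not overlap. An adjusted p under 0.10 gave 2747 genes. With resveratrol, all genes called were 10 without a filter, 47 with trend and robust options, 6 with the germline covariate, 4 with only the 2 diets compared and 61 at 0.10. Factors called were 0 with the covariate and with only the 2 diets, and listed genes were 2 with trend and robust options and 2 at 0.10. Between the treatments, factors and listed genes called were 0 and 0 under quantile normalization (36 genes in all), a common median (11), no filter (8), the covariate (16) and only the 2 diets (1). Trend and robust options gave 339 genes, and 0.10 gave 884 genes and 8 listed genes. Of the nearest pairs, 3 remained with Spearman's rho. For counts of 0, unadjusted p values under 0.05 in the fit used were held by 3 factors in each comparison. Apart from the fits with fewer arrays, the cause was not tested.

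Samples of the same replicate number in different diets did not deviate together (9 correlations from -0.33 to 0.40, against -0.37 to 0.41 for other numbers; 4 of 18 best matches shared the number), so the numbers were not taken to pair samples. With the replicate block 931 genes passed on the restricted diet, 1 with resveratrol and 0 between the treatments; factors called were 2, 0 and 0, and listed genes between the treatments 0.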
